A study of Rattus norvegicus with 32 samples.

Results

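Livers were compared between rats that had breathed ozone on 2 consecutive days and rats that had breathed filtered air on the same schedule, at the end of the second exposure. Samples were assigned by their titles, which gave 5 ozone arrays and 5 air arrays out of the 32 arrays of the series. All rats were male Wistar Kyoto (WKY), 10 weeks old and 250 to 300 g in weight. The ozone rats breathed 1 ppm for 6 h per day, and the air rats filtered air for 6 h per day. The other arrays came from livers taken at the end of day 1 (6 after ozone, 6 after air) and 18 h after day 2 (5 after ozone, 5 after air). No air array served at more than 1 harvest time. Nothing in the labels ties the arrays to separate animals, so p-values measure the spread between these samples.

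The liver turns surplus carbohydrate into fat. Pyruvate kinase and ATP citrate lyase supply the carbon, fatty acid synthase builds the chain, and desaturases such as stearoyl-CoA desaturase and the FADS enzymes add double bonds. SREBP-1c and ChREBP, products of Srebf1 and Mlxipl, are the transcription factors best known for driving these genes after feeding and in response to insulin. Mitochondrial beta-oxidation runs the other way and breaks fatty acids down, with many of its genes driven by the nuclear receptor PPAR alpha. Interferon-stimulated genes, with the transcription factors IRF7 and IRF9 among their regulators, form a separate programme that is active at a low level in healthy tissue. Ozone is an oxidant gas that reacts mainly in the lining of the airways.

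At the end of day 2, 22 of 13437 measured genes (0.164%) passed an adjusted p of 0.05 in limma, 14 of them higher after ozone (0.104%) and 8 lower (0.0595%). The 8 lower genes included 4 of lipid synthesis and its carbon supply, namely Scd, Fasn, Fads2 and Pklr. The 14 higher genes included Agpat2 and Chpt1 of phospholipid and triglyceride assembly, Acaa2 of mitochondrial beta-oxidation, and the circadian repressor Cry1. Only 2 of the 22 differed by 2-fold or more, and the median size of a called difference was 0.46 on the log2 scale. In the same contrast 1528 genes had an unadjusted p under 0.05.

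That count changed with 2 arrays, and also with how arrays were weighted (1842 genes with estimated array weights). Levels of each gene were centred on their mean over all 32 arrays, and each day 2 array was then correlated across genes with the mean of the other arrays of each group. Across 13437 genes, air replicate 5 had a correlation of -0.51 with the other day 2 air arrays, 0.59 with the day 2 ozone arrays and 0.48 with the day 1 ozone arrays. Ozone replicate 5 had -0.24 with the other day 2 ozone arrays, and 0.66 with the ozone arrays taken 18 h after day 2. The first 4 ozone arrays correlated best with their own group, at 0.49 to 0.71. Air replicates 1 and 2 were closer to day 1 air, at 0.65 and 0.59, than to the other day 2 air arrays, at -0.03 and 0.28. These correlations share the centring and the arrays in each mean, and they describe the arrays without a test.

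**Figure D1:**
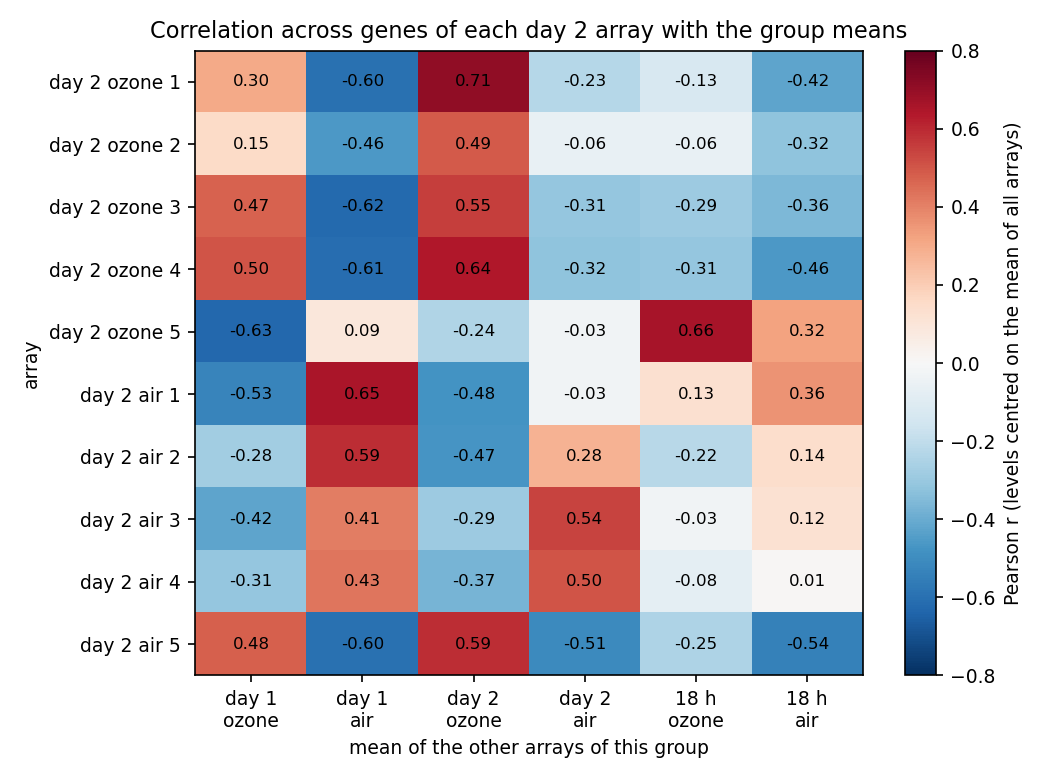
Pearson correlation across 13437 genes of each of the 10 day 2 arrays (rows) with the mean of the other arrays of each of the 6 groups (columns). Air replicate 5 lies with the day 2 and day 1 ozone columns (0.59 and 0.48) and not with ozone at 18 h after day 2 (-0.25). Ozone replicate 5 lies with ozone at 18 h after day 2 (0.66).

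The brightness and RNA measures at hand placed both arrays within or close to the range of the others. Median intensities of the day 2 arrays lay between 157 and 161, nonspecific probes between 85.2 and 92.0, and pairs of arrays correlated between 0.976 and 0.997 with 0 identical pairs. The 3' to 5' ratio of the actin control, a sign of RNA degradation, was 2.85 on ozone replicate 5 within an ozone range of 2.38 to 2.89, and 2.58 on air replicate 5 within an air range of 2.36 to 2.74. No sample was moved to another group, and the main results are given with all 10 arrays and again without the fifth arrays. Those 2 arrays were singled out for their distance from the rest of their groups, so the larger counts without them are not separate evidence of an effect.

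Without the fifth arrays 1323 genes passed (9.85%), 644 higher (4.79%) and 679 lower (5.05%), with a median size of 0.28. All 22 genes called with every array were among them, in the same direction and with a larger difference. Leaving out ozone replicate 5 alone gave 390 genes, and leaving out air replicate 5 alone gave 866. Leaving out any 1 of the first 4 replicates of either group gave 1 to 5 genes. Nucleosome assembly protein gene Nap1l1 was the single gene that stayed past the threshold in all 10 of these fits.

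**Figure D2:**
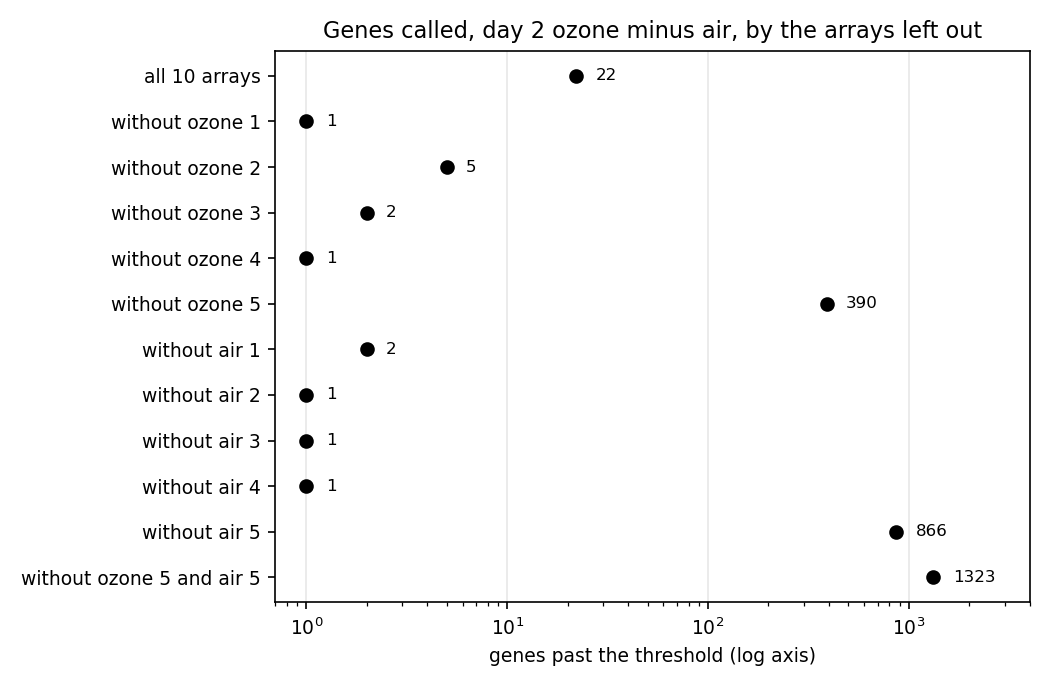
Number of genes with an adjusted p under 0.05 in limma for day 2 ozone minus air (log axis), with all 10 arrays, without each array in turn, and without the fifth arrays. The count is 22 with all arrays, 1 to 5 without any of the first 4 replicates, 390 without ozone replicate 5, 866 without air replicate 5 and 1323 without both.

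The largest fall was in Scd, the stearoyl-CoA desaturase that makes monounsaturated fatty acids (chr1:253218968-253232101, GRCr8). Its intensity was 344, 315, 377, 308 and 146 on the ozone arrays, against 976, 1995, 3428, 2346 and 384 on the air arrays. All 5 ozone arrays lay below the lowest air array, which was replicate 5. On the scale of log2(intensity + 16), used throughout, Scd averaged 8.23 ± 0.51 after ozone and 10.51 ± 1.23 after air (SD, n = 5 each). The difference was -2.27 ± 0.45 (SE, adjusted p = 0.0295 in limma), or 4.83-fold lower, and it was -2.51 ± 0.42 without the fifth arrays.

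Fasn, the fatty acid synthase (chr10:106570415-106588581), had 308, 399, 383, 374 and 417 on the ozone arrays and 840, 945, 1090, 1176 and 398 on the air arrays. The first 4 air arrays were all above every ozone array, while air replicate 5 lay inside the ozone range. The difference was -1.13 ± 0.25 (SE, adjusted p = 0.0498 in limma), or 2.18-fold lower, and both probe sets of the gene passed. Fads2, the delta-6 desaturase of polyunsaturated fatty acids (chr1:216132277-216172190), had 700, 810, 621, 679 and 700 on the ozone arrays and 1562, 1324, 1484, 1744 and 754 on the air arrays. It fell by 0.90 ± 0.16 (adjusted p = 0.0167), and here too only air replicate 5 overlapped the ozone arrays. Pklr, the liver pyruvate kinase that feeds carbon from glucose into lipid synthesis (chr2:176840779-176849637), had 227, 286, 283, 280 and 314 on the ozone arrays and 487, 659, 685, 679 and 272 on the air arrays. It fell by 0.89 ± 0.17 (adjusted p = 0.0295), with both of its probe sets past the threshold. It was the 1 called gene among 19 of glycolysis and glucose uptake, of which 2 rose and 2 fell without the fifth arrays. Over all genes 4.79% rose and 5.05% fell in the latter fit.

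Acly, the ATP citrate lyase that makes cytosolic acetyl-CoA, showed the same layout but missed the threshold. Its intensity was 543, 711, 493, 462 and 766 on the ozone arrays, against 1390, 1545, 2030, 2640 and 500 on the air arrays. The first 4 air arrays were above all ozone arrays and air replicate 5 lay inside the ozone range. The difference was -1.26 ± 0.29 (adjusted p = 0.0561) with all arrays and -1.73 ± 0.25 (adjusted p = 2.95e-05) without the fifth arrays.

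Of 22 measured genes of fatty acid synthesis, 3 fell (Scd, Fasn and Fads2) and 0 rose, and 21 of the 22 differences were negative, with a median of -0.29 against -0.001 over all genes. Leaving out the fifth arrays, 13 fell and 0 rose, with a median of -0.40, where 5.05% of all genes fell and 4.79% rose. The 13 included both transcription factors and Thrsp, all chosen for naming after their values were seen. Srebf1 read 695 to 843 on the first 4 ozone arrays and 1441 on ozone replicate 5, against 1275 to 1475 on the first 4 air arrays and 850 on air replicate 5. Its difference was -0.52 ± 0.23 (adjusted p = 0.425) with all arrays and -0.83 ± 0.23 (adjusted p = 0.0212) without both. Mlxipl differed by -0.25 ± 0.09 (adjusted p = 0.199) and by -0.40 ± 0.07 (adjusted p = 0.000532) without both. Thrsp, a feeding-induced lipogenic regulator, read 1936, 2695, 2794, 2171 and 3836 on the ozone arrays and 3919, 5855, 7073, 6773 and 2668 on the air arrays, a difference of -0.91 ± 0.24 (adjusted p = 0.0816).

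None of the 21 measured cholesterol synthesis genes passed with all arrays, although all 21 differences were negative (median -0.20). Without the fifth arrays 6 fell and 0 rose (median -0.27), where 5.05% of all genes fell and 4.79% rose. Among the 6 were the squalene synthase gene Fdft1 at -0.71 ± 0.17 (adjusted p = 0.00759 in limma) and the methylsterol monooxygenase gene Msmo1 (adjusted p = 0.0141). With all arrays Msmo1 differed by -0.71 ± 0.27 (adjusted p = 0.253). Both genes were chosen after their values were seen. The genes of this list with the smallest p with all arrays, Mvd and Lss, differed by -0.24 ± 0.08 and -0.40 ± 0.14 (adjusted p = 0.195 for each in limma).

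**Figure D3:**
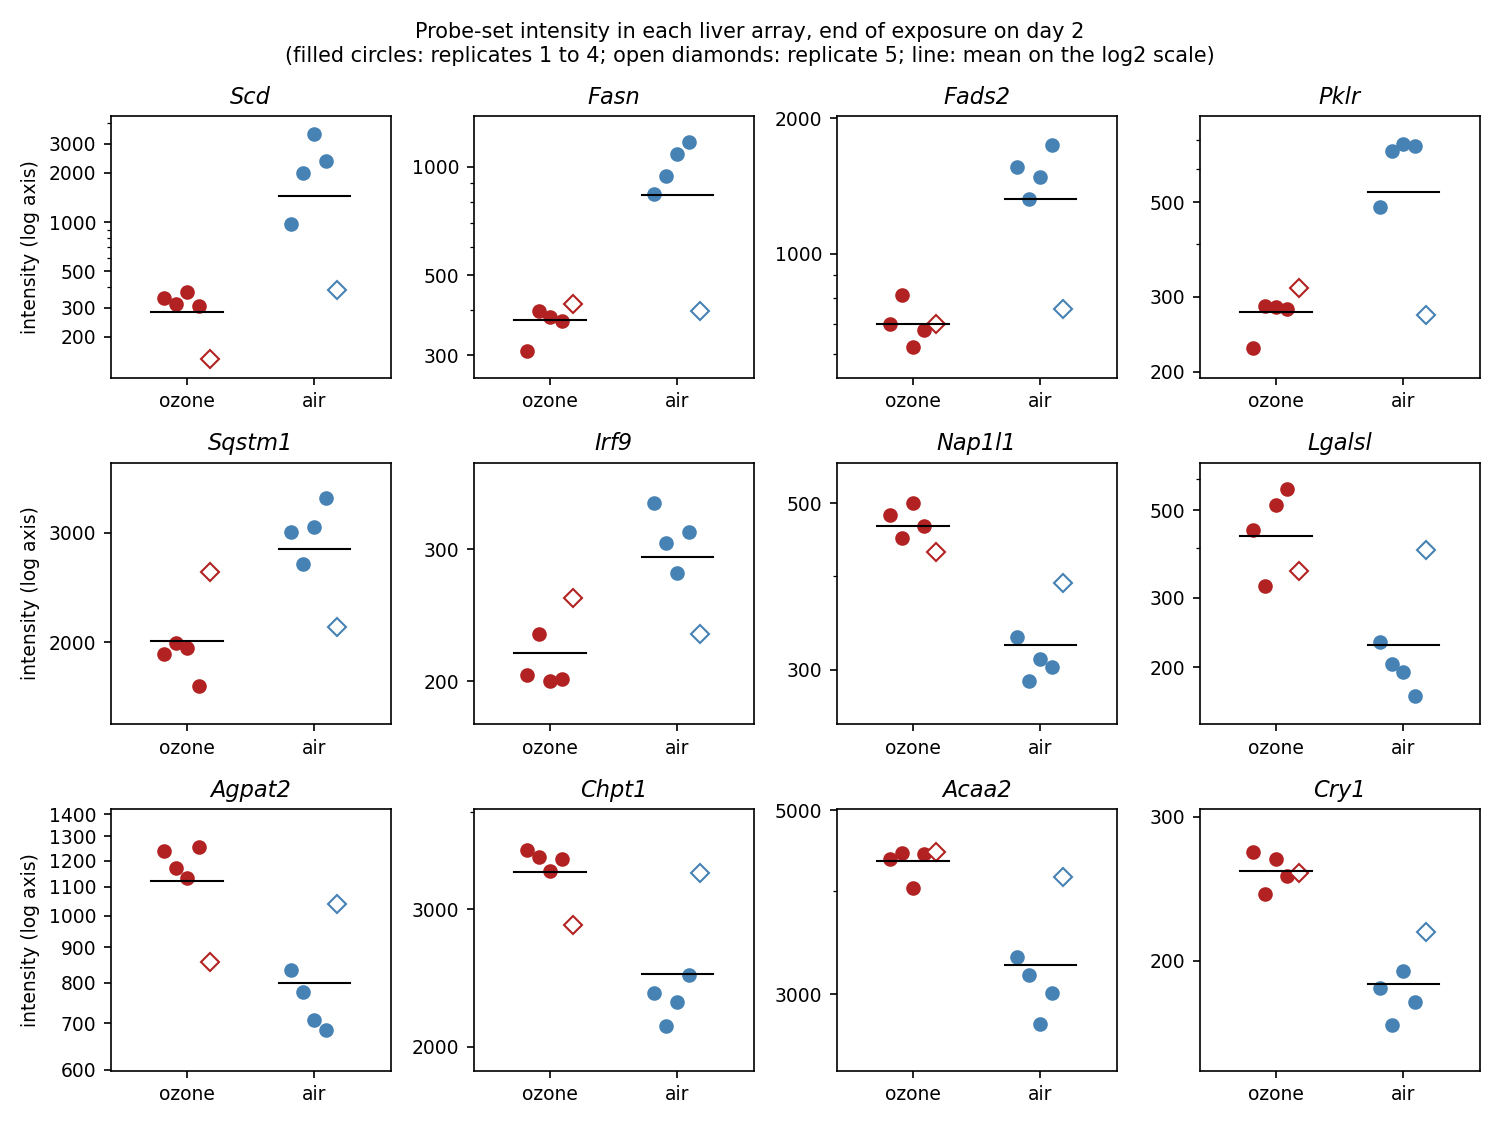
Intensity (log axis) of 12 of the called genes on each of the 5 ozone arrays and the 5 air arrays at the end of day 2, with replicate 5 as open diamonds and the mean on the log2 scale as a line. The first 4 replicates of the 2 groups do not overlap in these panels, and the air diamond is the air value nearest to the ozone arrays in every panel.

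The promoters of Scd and Acly are shown because both genes belong to the pathway with the most called falls, and those of Irf9 and Irf7 because they are the genes of the interferon list with the smallest p. Each sequence is the 300-base promoter window of RefSeq's GRCr8 table, printed 5' to 3', with matches to the motifs searched in capitals. The motifs were CCAAT, the E-box CACGTG, the sterol element TCACNCCAC and the interferon element, which is GAAA, any 2 bases and GAAA again, on both strands, and no window below holds overlapping matches. In all 4 genes the window lies inside the gene's outer limits, downstream of its outermost start.
Scd (chr1:253231682-253231981, minus strand): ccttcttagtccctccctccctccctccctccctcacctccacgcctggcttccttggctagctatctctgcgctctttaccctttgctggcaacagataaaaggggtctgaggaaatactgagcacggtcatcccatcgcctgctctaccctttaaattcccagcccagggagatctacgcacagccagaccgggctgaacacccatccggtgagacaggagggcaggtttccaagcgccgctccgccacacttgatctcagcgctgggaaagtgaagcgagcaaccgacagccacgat
Acly (chr10:85963582-85963881, minus strand): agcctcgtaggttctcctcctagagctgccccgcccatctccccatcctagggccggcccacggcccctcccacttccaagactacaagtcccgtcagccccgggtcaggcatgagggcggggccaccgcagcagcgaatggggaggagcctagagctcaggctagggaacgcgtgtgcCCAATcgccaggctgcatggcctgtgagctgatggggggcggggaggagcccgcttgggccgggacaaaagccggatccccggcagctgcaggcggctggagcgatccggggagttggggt
Irf9 (chr15:33065586-33065885, plus strand): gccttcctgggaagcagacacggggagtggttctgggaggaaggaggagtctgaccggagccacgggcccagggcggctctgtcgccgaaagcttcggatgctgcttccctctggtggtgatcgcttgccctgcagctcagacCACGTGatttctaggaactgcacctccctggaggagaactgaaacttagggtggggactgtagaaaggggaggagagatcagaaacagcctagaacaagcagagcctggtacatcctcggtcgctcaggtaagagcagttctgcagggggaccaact
Irf7 (chr1:205799974-205800273, minus strand): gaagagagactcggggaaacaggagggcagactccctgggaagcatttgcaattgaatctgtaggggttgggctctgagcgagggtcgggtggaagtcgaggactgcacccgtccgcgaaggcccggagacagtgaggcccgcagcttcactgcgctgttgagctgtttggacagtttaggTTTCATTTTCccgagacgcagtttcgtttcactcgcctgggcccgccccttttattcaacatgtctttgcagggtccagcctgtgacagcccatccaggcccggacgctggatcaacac
The Scd window held none of the 4 motifs, the Acly window 1 CCAAT, the Irf9 window 1 CACGTG and the Irf7 window 1 interferon element on the opposite strand. Of 33469 rat promoters of the same length, 37.5% held CCAAT, 6.42% CACGTG, 1.12% the sterol element and 3.92% the interferon element. A match or its absence says only which letters stand in the window.

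Among genes of fatty acid breakdown 1 rose. Acaa2, the mitochondrial 3-ketoacyl-CoA thiolase (chr18:70620310-70648417), had 4365, 4438, 4025, 4434 and 4454 on the ozone arrays and 3328, 3166, 2759, 3009 and 4149 on the air arrays. Air replicate 5 overlapped the lowest ozone array, and no other air array reached it. Acaa2 rose by 0.42 ± 0.07 (adjusted p = 0.0155 in limma), while its second, dimmer probe set did not pass (0.27, adjusted p = 0.142). Decr1, the 2,4-dienoyl-CoA reductase, differed by 0.41 ± 0.10 (adjusted p = 0.0561). Eci1 and Ech1, both enoyl-CoA isomerases, differed by 0.83 ± 0.20 (adjusted p = 0.0562) and 0.76 ± 0.19 (adjusted p = 0.0607).

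Of 19 measured mitochondrial oxidation genes, 1 rose (Acaa2) and 0 fell, 18 of the 19 differences were positive, and the median was 0.15. With the fifth arrays left out, 10 rose and 0 fell (median 0.24), against 4.79% of all genes higher and 5.05% lower. Of 24 PPAR alpha target genes 0 passed with all arrays, and 9 rose and 0 fell without the fifth arrays. Cpt2, the carnitine palmitoyltransferase of the inner membrane, and Hadha, of the trifunctional protein, differed by 0.54 ± 0.17 (adjusted p = 0.13) and 0.23 ± 0.09 (adjusted p = 0.235) with all arrays, and both passed without the fifth arrays, at 0.89 ± 0.12 and 0.33 ± 0.08. Both were chosen after their values were seen.

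Genes of glycerolipid assembly were also among the rises. Agpat2, which acylates lysophosphatidic acid on the route to triglyceride and phospholipid, had 1239, 1171, 1134, 1255 and 856 on the ozone arrays and 835, 777, 707, 685 and 1040 on the air arrays. The first 4 replicates of the groups did not overlap, and the fifth replicates lay between them, ozone below air. It rose by 0.48 ± 0.09 (adjusted p = 0.0239). Chpt1, the choline phosphotransferase, had 3573, 3502, 3360, 3485 and 2865 on the ozone arrays and 2345, 2124, 2283, 2470 and 3339 on the air arrays, with the fifth replicates again in each other's direction. It rose by 0.43 ± 0.08 (adjusted p = 0.0239), and its second probe set missed the threshold narrowly (0.40, adjusted p = 0.0515). Of 18 measured triglyceride genes, 1 rose with all arrays (Agpat2), where 0.104% of all genes rose. Without the fifth arrays 7 rose and 2 fell, against 4.79% of all genes higher and 5.05% lower.

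Hsd17b13, a lipid droplet enzyme of hepatocytes, had 2212, 2215, 2203, 2333 and 2113 on the ozone arrays and 1838, 1684, 1650, 1822 and 2151 on the air arrays. Its rise of 0.28 ± 0.06 (adjusted p = 0.033) was small but tight, and only air replicate 5 reached the ozone range. Ahcy, which hydrolyses S-adenosylhomocysteine in the methionine cycle, rose by 0.37 ± 0.07 (adjusted p = 0.0295), with 4698 to 5817 on the ozone arrays and 3730 to 5406 on the air arrays.

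Nap1l1, a histone chaperone gene (chr7:48819464-48844108), gave the smallest p of the comparison. It had 483, 450, 501, 467 and 431 on the ozone arrays and 332, 290, 310, 303 and 392 on the air arrays, and the groups did not overlap. It rose by 0.50 ± 0.08 (adjusted p = 0.00348 in limma), with both probe sets called, and its adjusted p stayed at or below 0.033 whichever day 2 array was left out. Rhobtb1 had 477, 456, 477, 452 and 526 on the ozone arrays, against 304, 308, 323, 308 and 373 on the air arrays, and rose by 0.54 ± 0.11 (adjusted p = 0.0495). It too did not overlap between groups. Chd9, a chromatin remodeller gene, rose by 0.40 ± 0.08 (adjusted p = 0.0498 in limma), also without overlap. Its second probe set did not pass (0.15, adjusted p = 0.124).

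In 6 of the 22 genes the ozone and air arrays did not overlap, Scd below and Rhobtb1, Nap1l1, Cry1, Chd9 and Slc30a4 above. Over all genes 1.38% had groups that did not overlap, 0.945% with ozone above and 0.439% with ozone below. Between the first 4 arrays of each group 15.6% did not overlap, 7.27% with ozone above and 8.36% below. Air replicate 5 was the air array nearest to the ozone arrays in 22 of the 22 genes, and lay past the midpoint of the group means in 18. Ozone replicate 5 was the ozone array nearest to air in 15, and past the midpoint in 6.

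Cry1 encodes a repressor of the circadian clock. It had 272, 241, 266, 254 and 256 on the ozone arrays and 185, 167, 194, 178 and 217 on the air arrays, so every ozone array was above every air array. It rose by 0.43 ± 0.09 (adjusted p = 0.0498) at day 2 and by 0.58 at 18 h after it (adjusted p = 0.00466), and differed by 0.09 on day 1 (adjusted p = 0.508). Of 19 measured clock genes 1 passed with all arrays, and 3 rose and 1 fell without the fifth arrays. Over all genes 4.79% rose and 5.05% fell in the latter fit.

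The largest rise also varied the most among arrays. Lgalsl, a galectin-like gene, rose by 0.87 ± 0.18 (adjusted p = 0.043), with 321 to 564 on the ozone arrays and 169 to 396 on the air arrays, air replicate 5 being the 396. Mcrip2 and Ext1 rose by 0.44 and 0.42, and Hs2st1 and Slc30a4 by 0.28 and 0.21. The last 2 stand beyond the 12 largest and are named here to complete the list of called genes. Other probe sets of Lgalsl (0.28, adjusted p = 0.201 in limma), Ext1 (0.10, adjusted p = 0.657) and Hs2st1 (0.16 and 0.14, adjusted p = 0.0672 and 0.336) did not pass. Among the falls, Sqstm1, the autophagy receptor p62, had 1916, 1995, 1958, 1697 and 2591 on the ozone arrays and 3008, 2676, 3072, 3418 and 2119 on the air arrays, a difference of -0.49 ± 0.10 (adjusted p = 0.0295). Its 3 other probe sets differed by 0.04, -0.01 and -0.10 and did not pass, so the fall rests on 1 of 4 probe sets. Ppp2r2b, a regulatory subunit gene of protein phosphatase 2A, fell by 0.99 ± 0.22, and Ddhd1, a phospholipase gene, by 0.62 ± 0.13 (adjusted p = 0.0498 for both).

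Irf9 (chr15:33065422-33071881) had 204, 231, 200, 201 and 258 on the ozone arrays and 346, 306, 279, 316 and 231 on the air arrays. It fell by 0.40 ± 0.09 (adjusted p = 0.0498), and air replicate 5 and ozone replicate 5 were each nearest to the other group. Of 31 measured interferon genes 1 fell (Irf9) and 0 rose, 30 of the 31 differences were negative, and the median was -0.29. Over all genes 0.0595% fell with all arrays, and the median was -0.001. When the fifth arrays were left out, 19 fell and 0 rose (median -0.43). In that fit 5.05% of all genes fell and 4.79% rose (median 0.004). Irf7, a master regulator of type I interferon genes, had 268, 292, 271, 266 and 305 on the ozone arrays and 638, 465, 337, 484 and 323 on the air arrays, with no overlap and a difference of -0.61 ± 0.16 (adjusted p = 0.078). The antiviral genes Mx2 and Oas1a, chosen after their values were seen, differed by -1.27 ± 0.35 and -0.67 ± 0.20 (adjusted p = 0.0893 and 0.104). Mx2 read 190, 228, 205, 174 and 309 on the ozone arrays, against a wider spread of 1275, 794, 413, 750 and 147 on the air arrays. At 18 h after day 2 the median of the same list was -0.38, and Irf9 had fallen by 0.44 (adjusted p = 0.0123).

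Of 16 antigen presentation genes 0 passed with all arrays and 3 fell without the fifth arrays, including the immunoproteasome subunits Psmb8 and Psmb9. Of 13 measured Kupffer cell and macrophage markers 0 passed, with a median of -0.11 and summed intensities of 4805 to 6675 after ozone and 5496 to 9259 after air. Without the fifth arrays their median was -0.17 and 1 of them fell, the lysozyme gene Lyz2, at -0.59 (adjusted p = 1.11e-05). Over all genes 5.05% fell in that fit. Their part in the interferon differences was not tested. In a bulk liver sample, fewer cells of a type and less RNA per cell cannot be told apart.

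The NRF2 and glutathione genes, which answer oxidant stress in many tissues, had 0 of 31 past the threshold with all arrays (median -0.06). Once the fifth arrays were left out, 11 fell and 0 rose (median -0.12). Among them were Tkt at -0.67 and Pgd at -0.56, both of the pentose phosphate pathway, and Gclm, the modifier subunit of glutamate-cysteine ligase, at -0.68. Of 25 bile acid genes 5 fell and 0 rose without both, and of 24 growth hormone and STAT5 genes 8 fell and 0 rose. Over all genes 5.05% fell and 4.79% rose in that fit. With all arrays none of either list passed, where only 0.164% of all genes did.

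**Figure D4:**
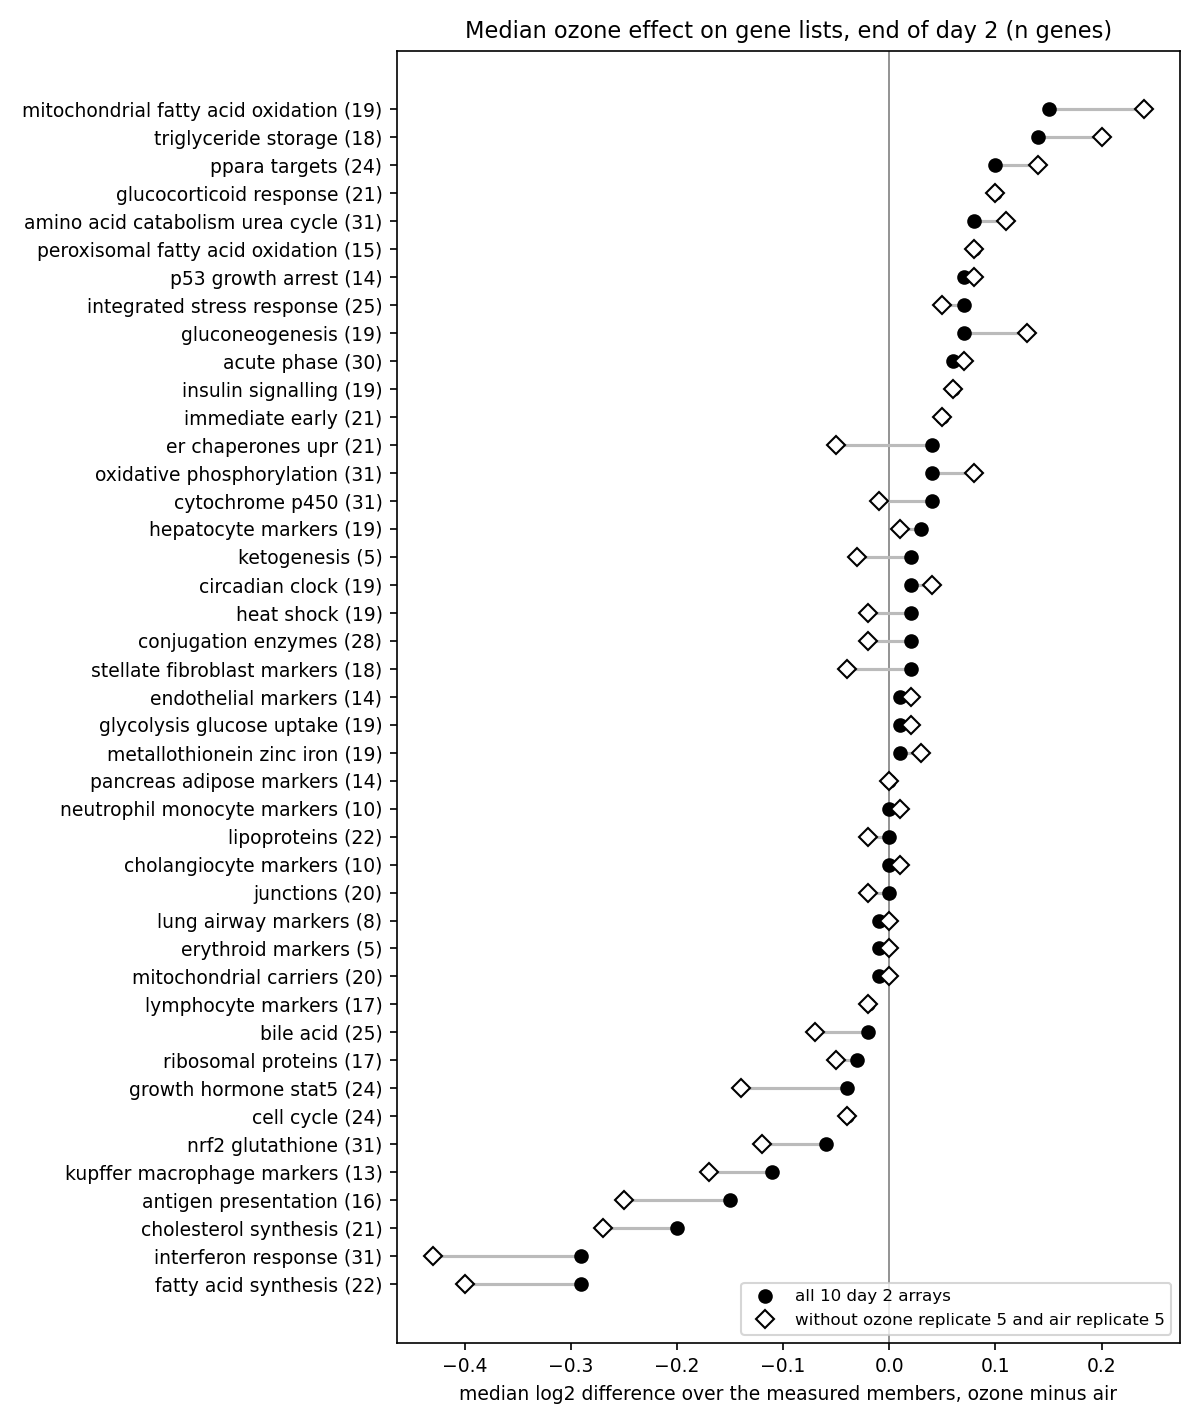
Median log2 difference (ozone minus air) at the end of day 2 over the measured genes of each of 43 lists (number of genes in brackets), with all 10 arrays (filled) and without the fifth arrays (open). Fatty acid synthesis and interferon response lie lowest and mitochondrial fatty acid oxidation highest in both fits, while the marker lists of other cell types lie near 0 except Kupffer cells and macrophages.

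Markers of hepatocytes were bright in every array, with summed intensities over 19 genes of 136063 to 145008 after ozone and 135104 to 139917 after air. Of 33 pathway lists and 10 marker lists, 6 had a called member with all arrays, and none of these was a marker list. With the fifth arrays left out, 5 marker lists had a called member, in a fit where 4.79% of all genes rose and 5.05% fell. Of 18 stellate cell and fibroblast markers 3 fell (list median -0.04), among them the collagen gene Col3a1 at -0.88 (adjusted p = 0.00159 in limma). Dcn of the same list was higher in that fit, at 0.29, and did not pass. With all arrays Col3a1 differed by -0.54 (adjusted p = 0.231 in limma), and 10 of the 18 differences were positive and 8 negative (median 0.02). In the other marker lists 1 of Kupffer cells and 1 of pancreas and adipose tissue fell without the fifth arrays, and 1 of hepatocytes and 1 of cholangiocytes rose. Summed markers of neutrophils and monocytes were 1271 to 1408 after ozone and 1308 to 1384 after air, and those of lymphocytes 2662 to 2903 after ozone and 2764 to 2893 after air. Lung airway markers stayed between 1271 and 1331 over both groups. Stellate cell and fibroblast markers summed to 4097 to 5615 after ozone and 4075 to 5839 after air, with ozone replicate 5 highest in its group and air replicate 5 lowest in its own.

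The second exposure was set against the first by testing the difference of the 2 ozone effects. That difference passed for 492 genes (3.66%), 298 positive (2.22%) and 194 negative (1.44%). With all arrays, the effect was smaller in size on day 2 than on day 1 in 452 of them, and larger in 40. In the same fit their median size was 0.07 on day 2 and 0.34 on day 1, where 3294 genes passed (24.5%). These genes were picked for a difference between the effects, and their sizes were not taken again without the fifth arrays. Without the fifth arrays 174 genes passed (1.29%, with 0.752% positive and 0.543% negative), of which 155 were among the 492. The count was 316 without air replicate 5 and 213 without ozone replicate 5.

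With all arrays, several genes with a difference between the exposures passed on day 1 and not on day 2. Cxcl1, a neutrophil chemokine, differed by 3.00 on day 1 and by 0.15 ± 0.57 on day 2, and by -2.86 ± 0.78 between them (adjusted p = 0.0365). Cdkn1a, the p21 cell cycle inhibitor, differed by 1.75 on day 1 and 0.37 ± 0.20 on day 2 (difference -1.38 ± 0.27, adjusted p = 0.00498). In the other direction, Gclm had -1.73 on day 1 and -0.25 ± 0.20 on day 2 (difference 1.47 ± 0.27, adjusted p = 0.00362). Fabp7, a fatty acid binding protein, and St3gal6, a sialyltransferase, followed with 1.42 ± 0.25 and 1.20 ± 0.23 (adjusted p = 0.00302 and 0.00498). Leaving out the fifth arrays ended the call of Cxcl1 (-3.02, adjusted p = 0.0748) and brought St3gal6 to 0.79, while Cdkn1a, Gclm, Fabp7 and St3gal6 still passed. In that fit the day 2 effect itself passed for Gclm, Fabp7 and St3gal6, at -0.68, -0.53 and -0.69 (adjusted p = 0.00179, 0.035 and 1.51e-05 in limma). For Cxcl1 and Cdkn1a it did not.

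Scd had the larger effect on day 2. It fell on day 2 and differed by -0.05 on day 1 (adjusted p = 0.946), and the difference between the effects was -2.22 ± 0.61 (adjusted p = 0.0377). At 18 h after day 2 Scd was still lower, at -2.13 (adjusted p = 0.0218). Rhobtb1, Nap1l1, Acaa2 and Chd9 also had a day 2 effect that differed from day 1 (0.63, 0.37, 0.37 and 0.44, adjusted p = 0.0196 to 0.0395). Of these 5 genes Chd9 alone lost its call without the fifth arrays (0.46, adjusted p = 0.055). For Fasn the difference was -0.91 ± 0.33 and did not pass with all arrays (adjusted p = 0.132 in limma). Without the fifth arrays it was -1.21 and passed (adjusted p = 0.0441 in limma).

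Of the 22 genes 12 had passed on day 1 in the same direction, against 24.5% of all genes that passed there in either direction, and 20 had the same sign. At 18 h after day 2, where 96 genes passed (0.714%), 4 of the 22 passed in the same direction (Scd, Hsd17b13, Irf9 and Cry1). No gene passed for the difference between the day 2 effect and the 18 h effect (0.0%) in limma, while 1027 had an unadjusted p under 0.05. Without the fifth arrays 691 passed (5.14%), with 2.11% positive and 3.03% negative.

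**Figure D5:**
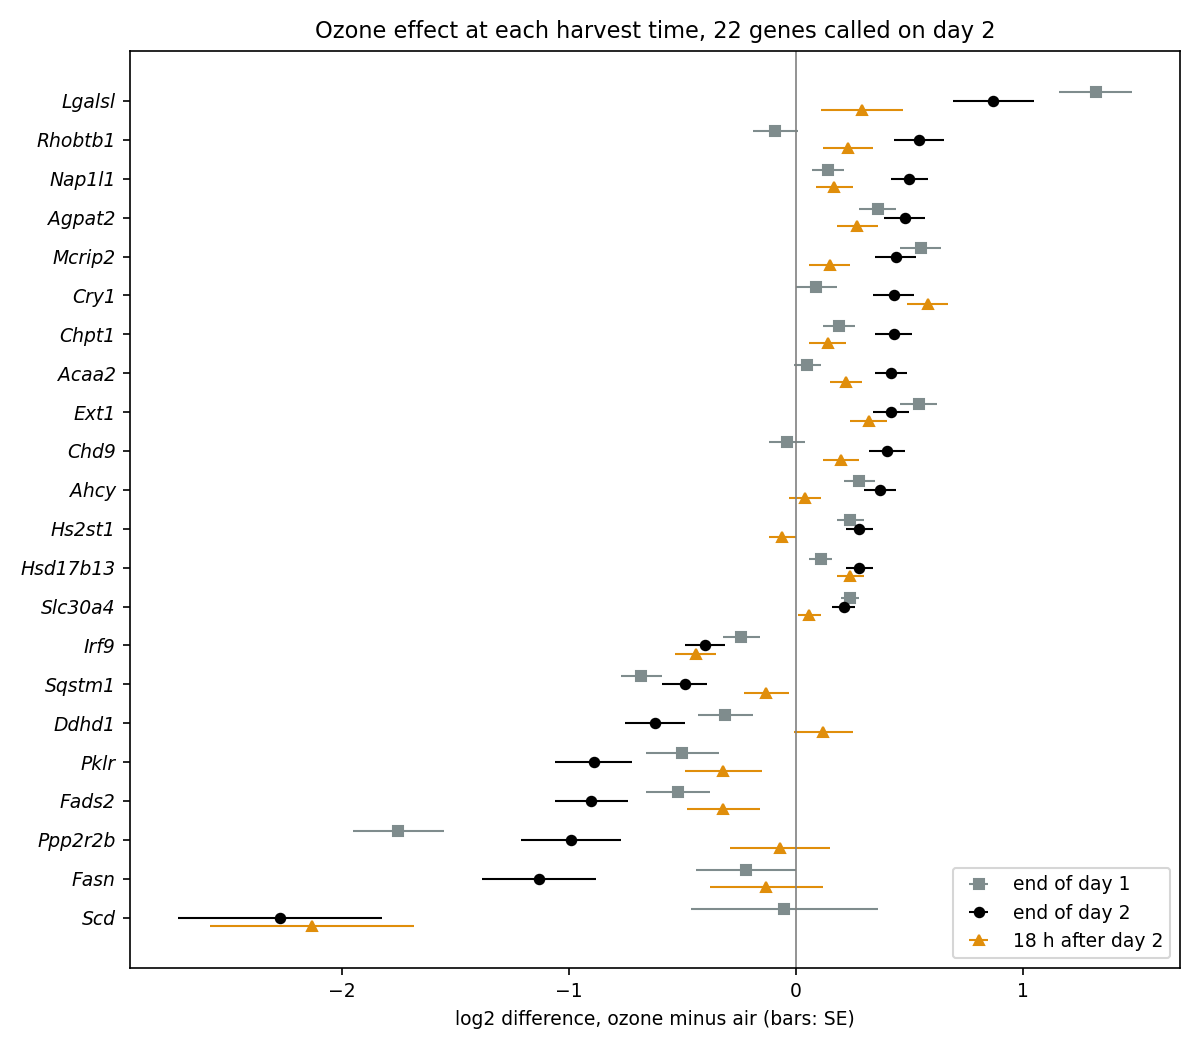
Log2 difference (ozone minus air, with SE) of the 22 genes called on day 2 at the end of day 1, the end of day 2 and 18 h after day 2. Scd lies at -2.27 on day 2 and -2.13 at 18 h, with -0.05 on day 1. Lgalsl and Ppp2r2b have larger values on day 1 than on day 2, by differences that did not pass (adjusted p = 0.382 and 0.155 in limma).

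Of the 1323 genes that passed on day 2 without the fifth arrays, 955 (72.2%) had passed on day 1 in the same direction and 4 in the opposite one. The 955 are 29.0% of the day 1 calls. Air replicate 5 was set aside partly for its likeness to the day 1 ozone arrays, so this share is a description and not separate support. Of the 1323 genes 12 were 2-fold or more higher and 27 were 2-fold or more lower.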

How the data were processed

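Rat liver RNA was hybridised to 32 single-colour Affymetrix arrays, of which the 10 arrays of day 2 are described here. The deposited values are linear probe-set intensities, made by the authors with Affymetrix Expression Console and its PLIER algorithm according to the submitters' processing notes. The sources used here state no version, background correction or scaling. The table held 31139 probe sets. Control probe sets (97), those with no gene (11407) and those with several genes (573) were left out, which left 19062 probe sets and 13437 genes. The brightest probe set stood for its gene. Values were analysed as log2(intensity + 16). Tests used limma 3.58.1 in R 4.3.3 (functions lmFit and eBayes, the variance following intensity), fitting 6 group means to all 32 arrays at once, with Benjamini-Hochberg adjustment over 19062 probe sets and a threshold of 0.05. All p-values are two-sided and differences are ozone minus air. Background signal left in the values makes the folds of dim genes too small. The number of arrays limits the precision of every comparison.

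Groups and replicate numbers came from the titles. The groups, the gene lists and the decision to give results without the fifth arrays were chosen with earlier results of these data known. Named genes were the 12 largest rises and the 12 largest falls with all ozone arrays on one side of the air mean, the 2 members of each list with the smallest p, or 4 where at least 3 passed, and the 3 largest in each direction between times. A further 28 genes were chosen after their values were seen. Lists were described by counts and medians, with no test. Arrays were compared by correlation across genes, and promoters came from RefSeq (GRCr8). On simulated data with 19062 probe sets the day 2 comparison called 99 of 100 changes of 0.5, 100 of 100 changes of 1, and 9 of 18862 unchanged probe sets. The simulated noise was drawn separately for each probe set and array, so no array stood apart from its group. These rates check the fit and do not say how many changes of that size were missed in the real arrays. Alternatives covered the offset, a low-value filter, the arrays in the fit, the intensity trend, the scaling, array weights, a replicate block and each array left out. Figures were drawn with matplotlib 3.10.9 under Python 3.11.15.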

Additional observations from a re-analysis of the deposited data

Results flagged for a closer look

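In 134 genes in each of the 2 groups, the highest or lowest of 5 arrays was checked for a gap to its nearest neighbour that was large for the group's range, which chance gives in about 5% of groups. The 134 genes are those named in this report, and 28 of them were chosen after their values were seen. The counts below therefore describe these genes and cannot be set against that 5%. Values in brackets are log2 levels. Air replicate 5 stood out 25 times. It was the low array in air for Tkt (9.58), Amacr (11.39), Abcc2 (10.02), Egfr (9.55), Rcan1 (8.21), Cldn3 (9.24), Cela1 (9.84), St3gal6 (9.06), Fads1 (10.59), Srebf1 (9.76), Igtp (7.78), Nqo1 (8.89), Nrep (7.92), Ifgga2l1 (7.98), Hsd17b2 (9.76) and Fdft1 (9.16). It was the high array in air for Hs2st1 (9.31), Acat1 (10.52), Fkbp5 (8.66), Rbm3 (10.12), Cox5b (11.44), Ndufv1 (10.28), Cd24 (7.96), Cdkn1a (8.39) and Atp1b1 (11.11). Ozone replicate 5 stood out 15 times. It was the low array after ozone for Scd (7.34), Agpat2 (9.77), Chpt1 (11.49), Ahcy (12.2), Hs2st1 (9.15), Aass (11.58), Slc25a20 (9.57) and Got1 (9.72). It was the high array after ozone for Lyz2 (10.06), Cxcl1 (8.19), Gclm (10.55), Fabp7 (11.3), Srebf1 (10.51), Nrep (9.44) and Ifgga2l1 (9.92). The remaining 5 stood on other arrays. Ozone replicate 3 was low for Acaa2 (11.98) and Lck (7.42) and high for Aqp5 (7.64), ozone replicate 2 was low for Hsd11b1 (12.37), and air replicate 2 was low for Clec4m (7.38).

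The day 2 ozone effect differed from the day 1 ozone effect in limma in these named genes, given as the log2 difference of the effects. The values were Scd (-2.22), Rhobtb1 (0.63), Nap1l1 (0.37), Acaa2 (0.37), Chd9 (0.44), Hsd11b1 (0.36), Dnajc3 (0.45), Cd24 (-0.38), Cxcl1 (-2.86), Cdkn1a (-1.38), Gclm (1.47), Fabp7 (1.42), St3gal6 (1.2) and Gclc (0.87).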

How the results depend on the processing

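With all arrays, 22 genes and 29 probe sets passed for day 2 ozone minus air. With an offset of 1 the counts were 12 genes and 16 probe sets, and with an offset of 64 they were 13 and 17. Leaving out probe sets below the 25th percentile gave 82 and 105, and the same filter with 1 probe set per gene gave 82 genes. The 10 day 2 arrays alone gave 1 and 1. Without an intensity trend the counts were 71 and 88, after quantile normalization 109 and 140, after median centring 53 and 68, and with array weights 1842 and 2345. After quantile normalization 56 genes were higher and 53 lower, against 14 higher and 8 lower without it. Leaving out 1 array at a time gave 1 to 866 genes and 1 to 1068 probe sets, and leaving out the fifth arrays gave 1323 genes and 1635 probe sets. For the day 2 effect minus the day 1 effect (492 genes), array weights gave 817, leaving out 1 array 213 to 721, and the fifth arrays out 174. For the day 2 effect minus the 18 h effect (0 genes), the filter gave 1, the filter with 1 probe set per gene 1, median centring 1, array weights 790, leaving out 1 array 0 to 156, and the fifth arrays out 691. The fit with the replicate block gave 3 genes and 3 probe sets for day 2 and 29 genes for the difference from day 1. Same-numbered ozone and air arrays of day 2 did not deviate together (correlations of -0.33, -0.16, -0.02, -0.29 and -0.58). The labels state no pairing, and these correlations cannot show whether such samples were exposed or processed together. The fit with the block is therefore given as an alternative only. The causes of these shifts were not tested. The 22 genes kept their direction in all 484 comparisons with an alternative and their call in 256.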

Other observations

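Several of the largest differences without the fifth arrays concerned genes whose differences are not given above. All of those given here were chosen after their values were seen. Nrep, a neuronal regeneration gene, had 250, 269, 225, 252 and 677 on the ozone arrays and 1347, 2014, 1242, 1178 and 226 on the air arrays. Air replicate 5 sat inside the ozone range, and ozone replicate 5 lay between the other ozone arrays and the first 4 air arrays. Its difference was -1.64 ± 0.43 with all arrays (adjusted p = 0.0753 in limma) and -2.43 ± 0.35 without both. Hsd17b2, which inactivates sex steroids, had -1.31 ± 0.37 (adjusted p = 0.0951) and -2.03 ± 0.28. The interferon-inducible GTPase gene Ifgga2l1 had -1.34 ± 0.36 (adjusted p = 0.0834) and -2.16 ± 0.22.

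Among the higher genes, Got1, the cytosolic aspartate aminotransferase, had 4740, 3291, 5119, 5349 and 830 on the ozone arrays and 1069, 1854, 2115, 1406 and 4468 on the air arrays. Air replicate 5 lay inside the ozone range and ozone replicate 5 below every air array, with a difference of 0.75 ± 0.35 (adjusted p = 0.454) and of 1.54 ± 0.22 without both. Por, the cytochrome P450 reductase, had 0.75 ± 0.25 (adjusted p = 0.173) and 1.26 ± 0.19. A2m, an acute phase protease inhibitor in the rat, followed another layout. It read 2138 and 3106 on ozone replicates 1 and 2, but 258, 312 and 338 on the other three ozone arrays, and 216 to 460 on the air arrays.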
